A study of Mus musculus with 4 samples.

Results

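The miR-290 to miR-295 cluster is a group of miRNA hairpins on mouse chromosome 7. Its 10 members described here are the 5p and 3p arms of miR-291a, miR-291b, miR-293, miR-294 and miR-295, taken by name from the 1907 mature miRNAs listed. Both arms were listed for all 5 hairpins, and all 10 members passed the filter on low reads.

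Small RNA-seq was performed on E14Tg2A cells, a mouse embryonic stem (ES) cell line of strain 129/Ola, and on epiblast-like aggregates (ELA) made from them. ES serum cells (0 days in vitro) grew with 10% fetal calf serum and 1000 U/mL of leukemia inhibitory factor (LIF). ES 2iL cells (0 days) had been moved for 3 to 5 passages to serum-free medium with N2/B27, the same LIF, the MEK inhibitor PD0325901 at 1 μM and the GSK3 inhibitor CHIR99021 at 3 μM. ELA serum and ELA 2iL were the respective ES cells after 2 days of floating culture in a LIF-free chemically defined medium with N2/B27. The medium in an ELA name is that of the parent ES cells. Each of the 4 groups was 1 library, made from 1 μg of RNA pooled from 3 sets of experiments, so no group has a replicate error and a difference between groups cannot be told apart from a difference between libraries.

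A miRNA hairpin is cut from a longer transcript, and the enzyme Dicer frees a duplex of its 5p and 3p arms. Argonaute keeps either arm as the guide strand, which pairs with target mRNAs mainly through its seed, the bases at positions 2 to 8, and the other arm is mostly lost. The miR-290 to miR-295 cluster is known as the main miRNA locus of mouse ES cells. Several of its 3p arms carry the seed of the miRNAs that promote the ES cell cycle, and the cluster of miR-302 and miR-367, known from the epiblast, carries the same seed.

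The mature sequences are shown because arm and seed define what is counted. They come from RefSeq (GRCm38.p6) and run 5′ to 3′, with the seed in capitals. The 3p arms were the following.
mmu-miR-291a-3p: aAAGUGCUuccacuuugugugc
mmu-miR-294-3p: aAAGUGCUucccuuuugugugu
mmu-miR-295-3p: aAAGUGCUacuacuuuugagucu
mmu-miR-291b-3p: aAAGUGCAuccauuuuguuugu
mmu-miR-293-3p: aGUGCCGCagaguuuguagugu
The 5p arms were the following.
mmu-miR-291a-5p: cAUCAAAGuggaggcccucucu
mmu-miR-291b-5p: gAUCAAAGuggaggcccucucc
mmu-miR-293-5p: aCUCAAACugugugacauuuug
mmu-miR-294-5p: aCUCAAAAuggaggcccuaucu
mmu-miR-295-5p: aCUCAAAUguggggcacacuuc
The 10 arms held 7 seeds. AAGUGCU was shared by 3 of the 3p arms and AUCAAAG by both miR-291 5p arms. The 5p arms of miR-293, miR-294 and miR-295 had their first 7 bases in common and different seeds. Among the 1623 listed miRNAs with a matched sequence, which do not include miR-302a-3p and miR-302c-3p, AAGUGCU also occurred in 2 miRNAs outside the cluster.
miR-302b-3p: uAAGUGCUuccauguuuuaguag
miR-302d-3p: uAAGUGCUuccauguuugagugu

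The hairpins show where the arms lie. They are given with both mature arms in capitals, again from RefSeq. The miR-291a hairpin had no matched entry.
Mir291b: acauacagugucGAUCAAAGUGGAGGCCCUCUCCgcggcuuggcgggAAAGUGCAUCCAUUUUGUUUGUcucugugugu
Mir293: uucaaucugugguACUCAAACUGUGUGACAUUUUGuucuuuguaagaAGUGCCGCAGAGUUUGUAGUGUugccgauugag
Mir294: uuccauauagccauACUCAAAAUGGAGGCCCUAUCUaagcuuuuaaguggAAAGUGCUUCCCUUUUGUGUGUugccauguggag
Mir295: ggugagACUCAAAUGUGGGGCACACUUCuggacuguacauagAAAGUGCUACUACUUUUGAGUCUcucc
Between the arms lie 12 to 14 bases of loop. On mm9, the build the authors mapped to, all hairpins are on the plus strand of chromosome 7. Mir291a spans 3218920 to 3219001, Mir291b 3219483 to 3219561, Mir293 3220344 to 3220423, Mir294 3220642 to 3220725 and Mir295 3220774 to 3220842. They fit within 1923 bp. No other annotated gene overlaps any of them, and the next coding gene, Nlrp12, lies 668 bp downstream on the minus strand.

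The libraries held 587363 reads (ELA 2iL) to 8056984 reads (ES serum), which makes 1 read worth 0.124 to 1.70 RPM. RPM here means reads per 1000000 reads on listed miRNAs, so it is a share of the miRNA reads and not an amount per cell, and fewer cells expressing a miRNA cannot be told apart from less of it per cell. Of markers of other lineages, 14 miRNAs known from neural, blood, muscle, liver or mesenchymal cells summed to 1090 to 2702 RPM, which is below the summed members in every library but above both miR-291b arms, mmu-miR-294-5p and mmu-miR-295-5p, and liver miR-122 was listed at 0 throughout. That sum was higher in ES 2iL (2586 RPM) and ELA 2iL (2702) than in ES serum (1296) and ELA serum (1090), the same side as the members, and its part in the results was not tested. Most of the difference lay in the blood miRNAs, at 593 RPM (ES serum), 551 (ELA serum), 1612 (ES 2iL) and 2007 (ELA 2iL). The neural miRNAs were at 649, 471, 869 and 547 RPM in the same order. Those of muscle were lower in ES 2iL (0 RPM) than in ES serum (11.5).

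The cluster made up a large share of every library, and the share was larger with 2iL and smaller in ELA. The 10 members together took 8.61% of the miRNA reads (ES serum, Wilson 95% interval 8.59 to 8.63), 5.55% (ELA serum, 5.53 to 5.57), 18.3% (ES 2iL, 18.3 to 18.4) and 14.1% (ELA 2iL, 13.99 to 14.16). These intervals, and all others here, cover counting error only. The summed level was 2.13-fold higher in ES 2iL than in ES serum (exact 95% interval 2.12 to 2.14) and 2.53-fold higher in ELA 2iL than in ELA serum (2.51 to 2.55). With the 5 most abundant miRNAs left out of members and totals alike (mmu-miR-295-3p is 1 of them), the share was 7.85% (ES serum), 4.17% (ELA serum), 10.2% (ES 2iL) and 9.39% (ELA 2iL), or 1.30-fold higher with 2iL in ES cells and 2.25-fold in ELA. From ES to ELA the level over all 10 members was 1.55-fold lower in serum (1.54 to 1.56) and 1.30-fold lower in 2iL (1.29 to 1.31). Both 2iL libraries thus lay above both serum libraries.

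**Figure D1:**
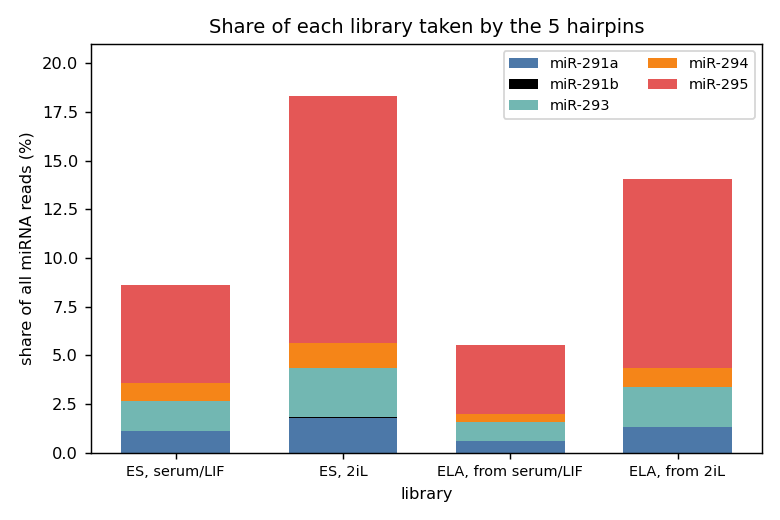
Share of all miRNA reads (%, vertical axis) taken by the 5 hairpins, both arms summed, in each of the 4 libraries (horizontal axis), with 1 stacked colour per hairpin. The stacks reach 8.61% (ES serum), 5.55% (ELA serum), 18.3% (ES 2iL) and 14.1% (ELA 2iL), miR-295 is the largest block in each, and miR-291b is too thin to see in most.

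A single arm dominated these shares. mmu-miR-295-3p, an AAGUGCU guide, stood at 49948 RPM (ES serum), 35327 (ELA serum), 126073 (ES 2iL) and 96518 (ELA 2iL). It was the miRNA of rank 5, 6, 2 and 3 in these libraries, and it held 58.0%, 63.6%, 68.8% and 68.6% of all member reads. Without it, the other 9 members summed to 36163, 20203, 57245 and 44223 RPM, which is 1.58-fold higher in ES 2iL than in ES serum (1.57 to 1.59) and 2.19-fold higher in ELA 2iL than in ELA serum (2.16 to 2.22). In ES cells the difference between media was therefore smaller in the rest of the cluster (1.58-fold) than in mmu-miR-295-3p itself (2.52-fold, 2.51 to 2.54).

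The other AAGUGCU arms were less abundant. mmu-miR-294-3p was at 8682 RPM (ES serum), 3988 (ELA serum), 11759 (ES 2iL) and 9260.0 (ELA 2iL). mmu-miR-291a-3p was at 3017, 1713, 4382 and 3792 RPM in the same order. For both, the 2 libraries with 2iL were the highest and ELA serum was the lowest.

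miR-302b-3p and miR-302d-3p, the matched miRNAs with the same seed outside the cluster, summed to 3835 RPM (ES serum), 24470.1 (ELA serum), 51.7 (ES 2iL) and 4454 (ELA 2iL). Of the reads on these 5 arms, the cluster held 94.1%, 62.6%, 99.96% and 96.1%. Their summed level was 65483 RPM (ES serum) and 65498 RPM (ELA serum), while the 3 cluster arms alone were at 61648 and 41028 RPM. With 2iL the sums were 142266 RPM (ES) and 114023 RPM (ELA). These sums leave out miR-302a-3p and miR-302c-3p, which had no matched sequence and stood together at 1505 RPM (ES serum), 9347 (ELA serum), 16.99 (ES 2iL) and 1202 (ELA 2iL). With both added by name, the sum was higher in ELA serum (74845 RPM) than in ES serum (66988 RPM), and the cluster held 92.03%, 54.8%, 99.95% and 95.1% of it.

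The 5p arms and the remaining 3p arms fell into abundant and rare members. mmu-miR-291a-5p was at 8045 RPM (ES serum), 4103 (ELA serum), 13522 (ES 2iL) and 9489.9 (ELA 2iL). mmu-miR-293-5p was at 8334, 5259.6, 17066 and 13731 RPM. mmu-miR-293-3p, whose seed GUGCCGC no other listed miRNA with a matched sequence carries, was at 7303, 4773, 8382 and 6575 RPM. It was the member with the smallest difference between media, and its ELA 2iL level was below that of ES serum.

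The rare arms showed some of the largest differences. mmu-miR-294-5p was at 233 RPM (ES serum), 107 (ELA serum), 957 (ES 2iL) and 667 (ELA 2iL). mmu-miR-295-5p was at 468, 222, 844 and 572 RPM. Both were higher in each 2iL library than in either serum library.

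miR-291b was the least abundant hairpin. mmu-miR-291b-5p was at 62.8 RPM (ES serum), 27.8 (ELA serum), 179 (ES 2iL) and 73.2 (ELA 2iL), and mmu-miR-291b-3p was at 18.4, 10.4, 153 and 63.0 RPM. The lowest of these values rests on 45 reads and the ELA 2iL values on 43 and 37 reads. The sequence of mmu-miR-291b-5p differs from that of mmu-miR-291a-5p, counted from the 5′ end and written with the miR-291a base first, only by C1G and U22C, and the 3p arms differ by U8A, C13U, G19U and C22U. mmu-miR-291a-5p had 75.4 to 147 times the reads of mmu-miR-291b-5p. mmu-miR-291a-3p had 164 times the reads of mmu-miR-291b-3p in each serum library, but 28.7 times in ES 2iL and 60.2 times in ELA 2iL. From mmu-miR-294-3p, the 3p arm of miR-291b differs by A8U, A12C and U19G, with the miR-291b base first. How the authors assigned reads that fit more than 1 of these arms is not stated, so the miR-291b values are uncertain.

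**Figure D2:**
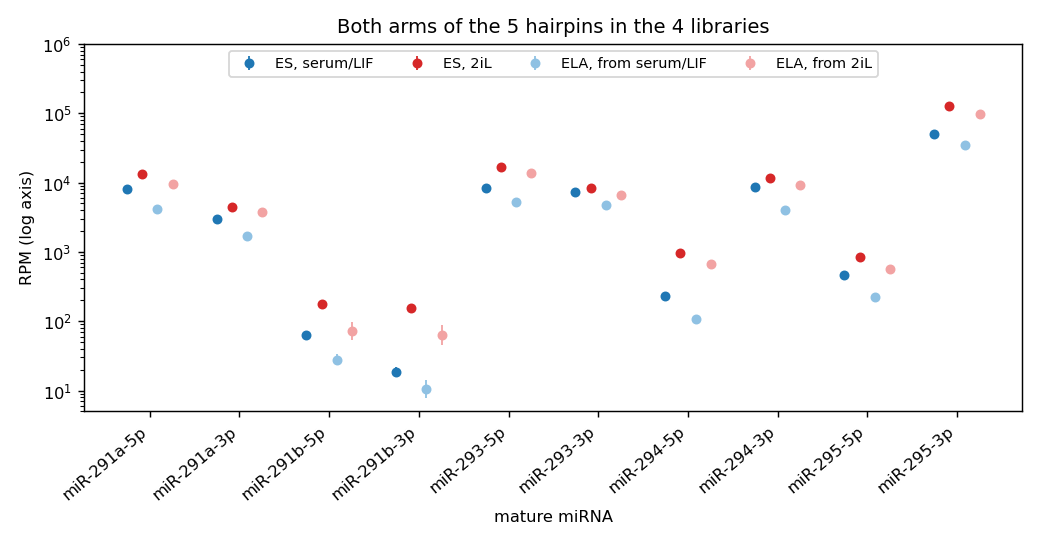
Level of each of the 10 mature arms (horizontal axis) in RPM (vertical axis, log scale) in the 4 libraries, 1 point per library, with Wilson 95% counting intervals that are mostly smaller than the points. In every arm the ES 2iL point is the highest and the ELA serum point the lowest, from 10.4 RPM (mmu-miR-291b-3p, ELA serum) to 126073 RPM (mmu-miR-295-3p, ES 2iL).

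The order of the members was similar across libraries. mmu-miR-295-3p led, by 5.75-fold (5.71 to 5.80) over the next member in ES serum and by 7.39-fold (7.32 to 7.46) in ES 2iL, and both miR-291b arms came last in each library. The places between shifted: mmu-miR-294-3p was in place 2 in ES serum and in place 5 in ELA serum, where mmu-miR-293-5p held place 2. mmu-miR-294-5p was below mmu-miR-295-5p in both serum libraries and above it in both 2iL libraries. Neighbours in this order differed beyond counting error except in ELA 2iL, where mmu-miR-291a-5p over mmu-miR-294-3p (ratio 1.02, 0.987 to 1.06) and mmu-miR-291b-5p over mmu-miR-291b-3p (1.16, 0.731 to 1.85) did not.

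The rest of the cluster was close to 0 as counted. For miR-290a and miR-292a both arms, and for miR-290b and miR-292b the 5p arm, were listed at 0 in all libraries. miR-290b-3p reached 6.81 RPM and miR-292b-3p 8.51 RPM in ELA 2iL, the shallowest library, on 4 and 5 reads. In ES serum, the deepest, they had 27 and 33 reads, or 3.35 and 4.10 RPM. On mm9 these hairpins lie at Mir290 (3218627 to 3218709) and Mir292 (3219190 to 3219271), between or before the members. Of these 8 arms, 6 overlap a listed miRNA annotated on the opposite strand, whereas 0 of the 10 members do. Over all listed miRNAs with 1 locus, 41 of 51 with such an overlap (80.4%) were at 0 in all libraries, against 549 of 1521 without (36.1%). The part of this overlap in the zeros was not tested.

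The first comparison asked how the members differed between ES cells and ELA. In each medium all 10 had lower values in ELA, against 39.1% of the expressed miRNAs, meaning those whose log2(RPM + 1) averaged 5 or more over the libraries. With TMM scaling 9 of 10 did, against 33.4%. The stage contrast, ELA minus ES on the log2(RPM + 1) scale averaged over both media, had a median of -0.74 over the members and -0.08 over the expressed miRNAs. It ranged from -1.21 ± 0.44 (SE) for mmu-miR-291b-5p to -0.44 ± 0.44 for mmu-miR-295-3p. None of the 10 passed limma's test (Benjamini-Hochberg adjusted p = 0.219 for mmu-miR-291b-5p and 0.577 for mmu-miR-295-3p), where 0% of the 599 miRNAs tested passed. At an unadjusted p under 0.05, limma gave 125 miRNAs, 1 of them a member. On the reads recovered from the RPM values, 0 members passed with edgeR (6.51% of all tested) and 0 with DESeq2 (8.35%).

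By size alone, with no test, 2 of the 10 (both miR-291b arms) were lower by at least 1 on the log2 scale, against 16.2% of the expressed miRNAs, and 1 of 10 with TMM scaling, against 11.6%. In serum, 4 of the 9 members with a sufficient mean level in that pair reached this size (mmu-miR-291b-5p with a log2 ratio of RPM of -1.17, both miR-294 arms with -1.12 and mmu-miR-295-5p with -1.08), against 14.6% of all. In 2iL, 2 of 10 did (both miR-291b arms), against 25.2%. For the other 8 members the difference was smaller in 2iL than in serum. The range in serum was 1.41-fold lower (mmu-miR-295-3p, 1.41 to 1.42) to 2.26-fold lower (mmu-miR-291b-5p, 1.84 to 2.78), and in 2iL it was 1.16-fold lower (mmu-miR-291a-3p, 1.10 to 1.21) to 2.45-fold lower (mmu-miR-291b-5p, 1.79 to 3.43). Whether the stage difference depends on the medium was not tested, since 1 library per group leaves no error for it.

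The second comparison asked how the members differed between 2iL and serum. All 10 were higher with 2iL at both stages, against 52% of the expressed miRNAs. With TMM scaling it was 8 of 10, against 38.4%. The medium contrast, 2iL minus serum averaged over both stages, had a median of 1.16 over the members and 0.42 over the expressed miRNAs. Relative to that 0.42, the members ranged from -0.09 (mmu-miR-293-3p) to 2.32 (mmu-miR-291b-3p). For mmu-miR-293-3p the contrast was 0.33 ± 0.44 under RPM and -0.09 under edgeR's TMM scaling, so its direction depends on the scaling.

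With limma, 0 members passed for medium, where 0% of the 599 tested passed. At an unadjusted p under 0.05 it gave 176 miRNAs, 5 of them members. The largest contrasts were those of mmu-miR-291b-3p (2.74 ± 0.45, limma adjusted p = 0.0910) and mmu-miR-294-5p (2.33 ± 0.46, limma adjusted p = 0.0947). Both passed with edgeR (adjusted p = 0.0151 and 0.0201) and with DESeq2 (adjusted p = 0.000840 and 0.00386), as 2 of 10 members, against 10.7% of all tested with edgeR and 13.4% with DESeq2. Over all the fits tried, the adjusted p ranged from 7.69e-05 to 0.136 for mmu-miR-291b-3p and from 0.00117 to 0.137 for mmu-miR-294-5p. In ES cells mmu-miR-291b-3p was 8.32-fold higher in 2iL (6.89 to 10.1) and in ELA 6.03-fold higher (3.80 to 9.53). mmu-miR-294-5p was 4.11-fold higher in ES cells (3.87 to 4.37) and 6.23-fold higher in ELA (5.43 to 7.14).

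By size alone, 6 of the 10 members were higher with 2iL by at least 1 on the log2 scale, against 23.8% of the expressed miRNAs: both arms of miR-291b and of miR-295, mmu-miR-293-5p and mmu-miR-294-5p. With TMM scaling 3 of the 10 reached this size (both miR-291b arms and mmu-miR-294-5p), against 13.6%. In ES cells 5 of 10 reached this size, against 32.9% of all, and in ELA 8 of the 9 with a sufficient mean level did, against 20.9%. Only mmu-miR-293-3p did not in that pair, at 1.38-fold (1.33 to 1.43).

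The ratio of a hairpin's 2 arms within a library does not depend on how the library is scaled. The third comparison asked whether this arm use differed between groups. The hairpins were of 3 kinds. miR-294 and miR-295 were read almost wholly as 3p arms, miR-291a mainly as its 5p arm in all libraries, and miR-293 and miR-291b to a different extent in each medium.

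The miR-295 5p share was 0.928% of the hairpin's reads (ES serum, Wilson 95% interval 0.899 to 0.958), 0.623% (ELA serum, 0.585 to 0.664), 0.665% (ES 2iL, 0.639 to 0.692) and 0.589% (ELA 2iL, 0.530 to 0.655). ES serum was the highest. From ES to ELA the log2 ratio of 5p to 3p reads fell by 0.579 in serum (counting interval -0.682 to -0.476) and by 0.175 in 2iL (-0.341 to -0.010). From serum to 2iL it fell by 0.485 in ES cells (-0.560 to -0.411), and in ELA it changed by -0.082, where the interval included 0 (-0.262 to 0.098). The miR-291a 5p share was 72.7% (72.4 to 73.0), 70.6% (70.0 to 71.1), 75.5% (75.1 to 75.9) and 71.5% (70.4 to 72.4) in the same order. These hairpins thus kept the same larger arm in all libraries. By the shares below, so did miR-294, miR-293 and miR-291b, though in ELA 2iL counting error did not separate the arms of miR-291b.

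The miR-294 5p share was 2.61% in ES serum (2.50 to 2.73) and 2.62% in ELA serum (2.39 to 2.86), but 7.53% in ES 2iL (7.26 to 7.81) and, for ELA 2iL, 6.72% (6.11 to 7.39). The 3p arm therefore outnumbered the 5p arm by 37.3 and 37.2 in the serum libraries and by 12.3 and 13.9 in the 2iL libraries. The 2 media did not overlap, and within a medium the ES and ELA libraries were close.

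The miR-293 5p share was 53.3% in ES serum (53.02 to 53.57) and 52.4% in ELA serum (52.0 to 52.9), against 67.1% in ES 2iL (66.7 to 67.4) and, for ELA 2iL, 67.6% (66.8 to 68.5). The arms were thus nearly equal with serum, and the 5p arm was 2.04 and 2.09 times the 3p arm with 2iL.

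The miR-291b 5p share was 77.4% in ES serum (74.0 to 80.4) and 72.7% in ELA serum (65.5 to 78.9), against 54.0% in ES 2iL (50.7 to 57.2) and, for ELA 2iL, 53.8% (42.9 to 64.3). Here the 3p arm, not the 5p arm, took a larger part with 2iL.

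**Figure D3:**
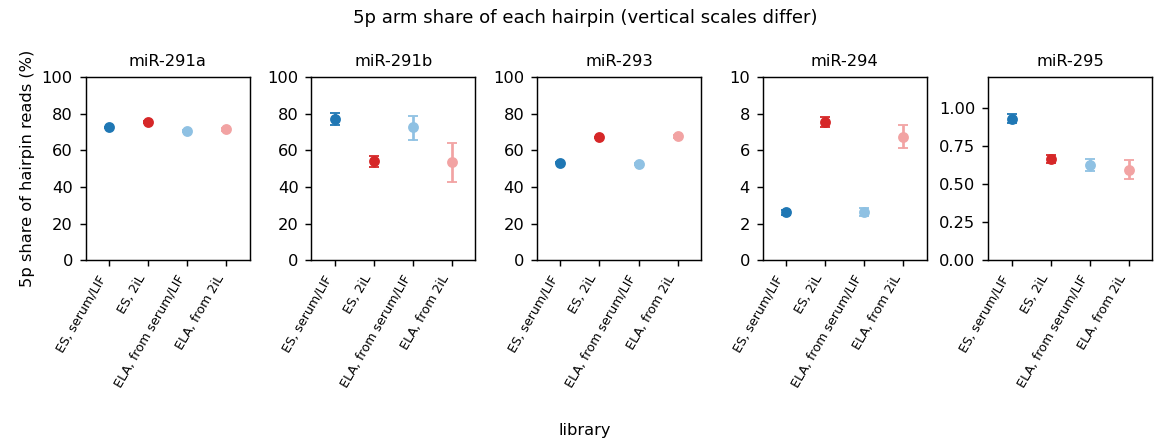
Share of each hairpin's reads on its 5p arm (%, vertical axes, with a scale of its own for miR-294 and for miR-295), 1 panel per hairpin and 1 point per library (horizontal axes), with Wilson 95% counting intervals. With 2iL the share is higher for miR-293 (67.1% and 67.6%) and miR-294 (7.53% and 6.72%) and lower for miR-291b (54.0% and 53.8%) at both stages.

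The log2 ratio of 5p to 3p reads was compared over the 99 hairpins with at least 10 reads on each arm in every library, which include all 5. By stage, 0 of the 5 hairpins passed limma's test, where 5.05% of the 99 did. Their contrasts, ELA minus ES, lay between -0.38 (miR-295) and -0.01 (miR-293), each ± 0.45 (SE). The contrast of miR-295 is the mean of unequal values, -0.579 in serum and -0.175 in 2iL. The adjusted p was 0.831 for miR-295 and 0.988 for miR-293 (limma), and 15 hairpins had an unadjusted p under 0.05, 0 of them from the cluster. By size alone, 0 of the 5 differed by at least 1, against 12.1% of the 99.

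By medium, miR-294 and miR-291b passed limma's test in opposite directions, 2 of 5 where 28.3% of the 99 did. The log2 ratio of miR-294 was higher with 2iL by 1.51 ± 0.45 (limma adjusted p = 0.00671), a 2.85-fold shift toward the 5p arm. That of miR-291b was lower, with a contrast of -1.37 ± 0.45 (limma adjusted p = 0.0158), a 2.58-fold shift toward the 3p arm. How reads that fit miR-291b and also miR-291a or, on the 3p arm, miR-294 were assigned is not stated. The part of this in the call was not tested. The reads of miR-291a and miR-291b were also summed per arm, a sum in which miR-291a holds most reads. Its 2iL minus serum change was 0.178 in ES cells (counting interval 0.142 to 0.214) and 0.050 in ELA (-0.031 to 0.130). miR-293 had 0.88 (limma adjusted p = 0.143), miR-291a 0.14 (0.850) and miR-295 -0.28 (0.679). By size, the same 2 of 5 differed by at least 1, against 32.3% of the 99. Under the looser filter of 1 read on each arm in 2 libraries, 0 of 314 hairpins were called with limma, 55 of them having an unadjusted p under 0.05, while the other settings called 28.3% to 30.4%. By size of the contrast, the hairpins of the cluster ranked 18 (miR-294), 21 (miR-291b), 38 (miR-293), 78 (miR-295) and 88 (miR-291a) of 99.

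The spread behind these tests was shared. limma estimated 1 common spread for all 99 hairpins, so the SE is the same for each, and over the settings tried the adjusted p ranged from 0.00126 to 0.256 for miR-294, from 0.0158 to 0.293 for miR-291b and from 0.0146 to 0.431 for miR-293. The values at each stage were close: miR-294 shifted by 1.60 in ES cells (counting interval 1.51 to 1.69) and 1.42 in ELA (1.22 to 1.62), and miR-293 by 0.84 (0.81 to 0.86) and 0.92 (0.86 to 0.98). miR-291b shifted by -1.54 (-1.87 to -1.22) and -1.20 (-2.004 to -0.394).

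**Figure D4:**
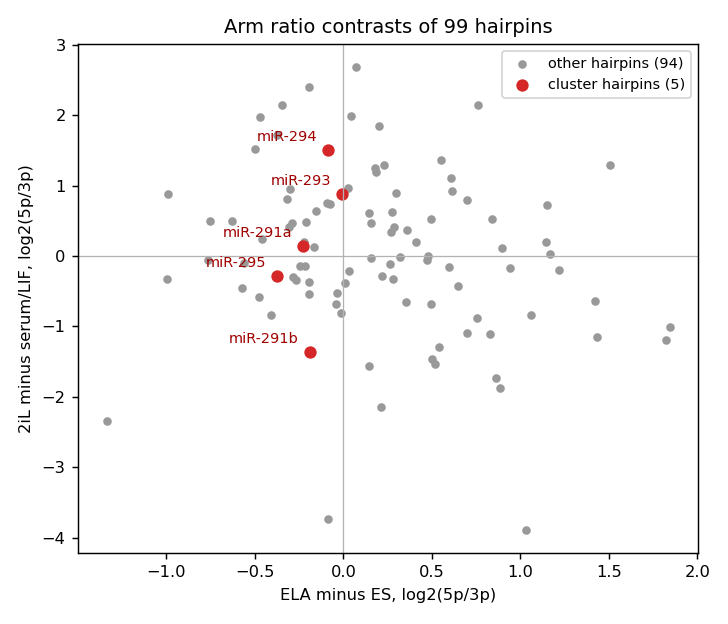
Contrast of the log2 ratio of 5p to 3p reads by stage (ELA minus ES, horizontal axis) and by medium (2iL minus serum/LIF, vertical axis) for 99 hairpins, 1 point each, with the 5 hairpins of the cluster in red. The red points lie between -0.38 and -0.01 on the stage axis and between -1.37 (miR-291b) and 1.51 (miR-294) on the medium axis, inside the range of the other hairpins.

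Hairpins of other pluripotency clusters give a scale for these values. Of the cluster of miR-302 and miR-367, only miR-302a had enough reads for the fit, with a medium contrast of 1.37 (limma adjusted p = 0.0158). It rests on 16 reads of the 5p arm in ES 2iL, and the change was 0.65 in ES cells (counting interval -0.19 to 1.48) against 2.06 in ELA (1.89 to 2.23). Of the miR-17/92 cluster, an oncogenic cluster that promotes proliferation, miR-17 had -0.06, miR-20a 0.64, miR-18a 1.30 (limma adjusted p = 0.0217) and miR-19a -2.35 (limma adjusted p = 2.47e-05). Under the looser filter the adjusted p was 0.332 for miR-302a, 0.313 for miR-18a and 0.190 for miR-19a (limma), so these calls were lost too. The largest of all by medium were miR-409 (-3.89), miR-99b (-3.73) and miR-871 (2.68), of which miR-409 and miR-99b had an adjusted p of 0.139 under that filter, and by stage miR-667 (1.85), miR-669a (1.82) and miR-18a (1.51). In the miR-17/92 cluster, as in that of miR-295, the hairpins thus had contrasts of both signs.

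The profile of the summed members over the 4 libraries was compared with those of the other expressed miRNAs, as a description. The nearest by Euclidean distance between centred log2(RPM + 1) profiles were miR-425-5p (0.281), miR-667-3p (0.319), miR-15b-3p (0.394), miR-30d-5p (0.395) and miR-23b-3p (0.407). miR-425-5p, the nearest, stood at 298 RPM (ES serum), 245 (ELA serum), 726 (ES 2iL) and 497 (ELA 2iL). The profiles rest on the same 4 libraries, which all miRNAs share.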

How the data were processed

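Small RNA-seq libraries (TruSeq, 1 per group) were demultiplexed with CASAVA 1.8, per the labels. Adaptor trimming (Trimmomatic), mapping to mm9 (Bowtie) and counting on miRBase release 20 (featureCounts) were done by the authors, who deposited the values as RPM. Mismatches, strand, multi-mapping and overlap settings are not given in the sources used here. Every column was used (0 were left out). Groups came from the titles, as do the names of the columns, and the source names and characteristics give the same groups. The labels' description field exchanges ES 2iL and ELA serum, and grouping by it would exchange the stage and medium contrasts.

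Every RPM value was a whole multiple of that of 1 read (100% within a tolerance of 0.01 reads), which gave back whole reads. The study's methods name edgeR. As the values are RPM, the main test was limma 3.58.1 (R 4.3.3) on log2(RPM + 1), a pseudocount that understates changes of low miRNAs, with stage and medium as terms, over the 599 miRNAs reaching 10 reads in 2 or more libraries. It leaves 1 residual degree of freedom. Tests were two-sided, Benjamini-Hochberg adjusted, at 0.05. edgeR 4.0.16 and DESeq2 1.42.0 on recovered reads were alternatives. For arm ratios, 0.5 reads were added to each arm, and limma ran over 99 hairpins. Counts by size required a mean log2(RPM + 1) of at least 5 and a difference of at least 1, over a pair of libraries or over all 4. Pairs of libraries were compared with exact 95% intervals on reads, and arm ratios with Woolf intervals. A miRNA with at most 3 reads was taken as not detected, equal to 0.372 RPM in the deepest library and 5.11 in the shallowest. Reads carry no molecular identifiers. The limma fits were also run on simulated reads, with changes and a spread set in advance. That does not show how far the calls hold in these libraries. Other scalings, pseudocounts, filters and leaving out each library were also tried.

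The members, comparison hairpins and marker lists were chosen with earlier results of these data known. The miRNAs named are the members, the lineage markers, the rest of their cluster, miRNAs outside it with a member's seed and at least 100 RPM, the 5 nearest profiles, the hairpins of the miR-302 and miR-17/92 clusters, and the 3 hairpins with the largest arm contrast by stage and by medium.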

Additional observations from a re-analysis of the deposited data

Results flagged for a closer look

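The arm ratios of miR-293 and miR-294 moved in opposite directions from ES to ELA in the 2 media, which was not tested and rests on 1 library per group. For miR-293 the log2 ratio of 5p to 3p reads changed by -0.05 in serum (counting interval -0.08 to -0.02) and by 0.04 in 2iL (-0.02 to 0.10), a difference of 0.0868. For miR-294 it changed by 0.0042 in serum (-0.14 to 0.15) and by -0.18 in 2iL (-0.33 to -0.02), a difference of -0.18. In each hairpin the interval of 1 of the 2 changes includes 0.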

How the results depend on the processing

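No member was called for stage in any of the 9 fits. Over all miRNAs, limma on RPM and with DESeq2 size factors or totals without the 10 members called 0 of 599. The calls were 45 of 599 with TMM, 89 of 599 without the 5 most abundant and 9 of 599 with a pseudocount of 5 RPM. With no filter on low reads they were 99 of 1202, with edgeR 39 of 599 and with DESeq2 50 of 599. For medium, limma on RPM and with DESeq2 size factors or totals without the 10 members called 0 members and 0 of 599 miRNAs. Each other fit called 2 members. The calls over all miRNAs were then 74 of 599 with TMM and 38 of 599 with a pseudocount of 5 RPM. They were 109 of 599 with totals without the 5 most abundant miRNAs (miR-295-3p is 1 of them). With no filter on low reads they were 130 of 1202, with edgeR 64 of 599 and with DESeq2 80 of 599. miR-293-3p turned from 0.33 to -0.089 with TMM and edgeR and to -0.049 with DESeq2 and with its size factors. The median member contrast for stage (-0.74) was -0.56 with TMM, -0.52 with DESeq2 size factors, -0.65 without the 5 most abundant, -0.80 without the 10 members and -0.74 with 5 RPM, and from -0.89 to -0.45 with each library left out, -0.45 without ES serum or without ELA serum. That for medium (1.16) was 0.74, 0.78, 1.04, 1.31 and 1.15 in the same order, and from 0.94 to 1.36 with each library left out, which leaves 1 pair and no test. Of the 5 hairpins, 2 were called for arm ratio by medium, 1 of 4 with at least 50 reads on each arm, a filter miR-291b misses, and 0 of 5 when 1 read on each arm in 2 libraries sufficed. With a variance trend 2 were called, but miR-293 (adjusted p = 0.0146, limma) in place of miR-291b (0.0882). With a library left out, the stage contrast of the arm ratio ranged from -0.0503 to 0.0365 for miR-293, above 0 without ES serum or ELA serum, and from -0.174 to 0.00537 for miR-294, above 0 without ES 2iL or ELA 2iL. That of miR-295 (-0.38) ranged from -0.578 without either 2iL library to -0.174 without either serum library. Over all hairpins, 5 of 99 were called by stage, 8 with a variance trend and 0 of 314 with the looser filter. Counts by size were added after seeing the data, and the share of the expressed miRNAs is given in brackets. The 2 members lower in ELA (16.2%) became 1 with TMM (11.6%), DESeq2 size factors (9.93%) or totals without the 5 most abundant (14.2%). The 6 higher with 2iL (23.8%) became 3 with TMM (13.6%) and 4 with DESeq2 size factors (15.2%). They became 5 without the 5 most abundant (20.5%) and 7 without the 10 members (31.1%). Without the 5 most abundant miRNAs, the members' share was 7.85% (ES serum), 4.17% (ELA serum), 10.2% (ES 2iL) and 9.39% (ELA 2iL). The cause of these changes was not tested. No paired analysis was possible because each group has 1 library and so no replicate number to pair by, though stage and medium are terms of every fit. Low reads limit the miR-291b values, with 45 reads of its 3p arm in ELA serum and 37 in ELA 2iL.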
